A study of Mus musculus with 8 samples.

Results

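The integrated stress response regulators described here are 10 genes, Atf4, Atf5, Ddit3, Trib3, Chac1, Sesn2, Nupr1, Stc2, Eif4ebp1 and Cebpb, taken by symbol from a table of raw counts with 24421 rows. All 10 were listed and all 10 passed the filter on low counts. RNA was sequenced from brain endothelial cells of C57Bl6 mouse embryos at E14.5, in 4 libraries from Flvcr2 knockout embryos and 4 from Flvcr2 heterozygous embryos. The heterozygous embryos carry the mutant allele too: per the labels this allele makes cells express GFP, cells positive for GFP and CD31 were sorted from both genotypes, and no library without the allele was analysed here. Each library came from 2000 to 5000 cells, and separate embryos are not named for the replicates, so every p-value is set against the variation among these 8 libraries, which may in part be technical.

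The integrated stress response is a shared reply of cells to amino acid shortage, heme shortage, misfolded protein in the endoplasmic reticulum and viral RNA. Kinases that sense these states phosphorylate the initiation factor eIF2, which lowers protein synthesis as a whole while upstream reading frames in the Atf4 mRNA let its protein be made. ATF4, a transcription factor of the basic leucine zipper (bZIP) family, then raises genes for amino acid supply, redox balance and feedback on the response itself. Because ATF4 and its relative ATF5 are controlled largely at translation, their mRNA levels do not measure their protein.

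Total counts ran from 12.1 to 35.9 M in knockout libraries and from 9.11 to 22.6 M in heterozygous libraries. The mutated gene, listed under its older symbol Mfsd7c, was at 393, 227, 260 and 326 CPM (counts scaled to a common library size) in knockout libraries 1 to 4 and at 276, 444, 578 and 409 CPM in heterozygous libraries 1 to 4, so its count does not separate the genotypes (log2 fold change -0.50 ± 0.24, SE; edgeR adjusted p = 0.209). No source used here gives the extent of the mutated stretch, and reads outside it would check nothing. The 12 endothelial markers were all present, with a summed level of 9059.5 to 12566 CPM in knockout and 6884 to 12096 CPM in heterozygous libraries. These sums overlapped, but single markers differed. In edgeR 1 of the 12 was called higher and 1 lower, against 5.53% and 4.02% of all tested genes. DESeq2 called 5 higher and 2 lower, and limma voom 1 and 1. Markers of other cells were called lower in part. In edgeR these were 7 of 12 neuron, 3 of 9 radial glia, 2 of 10 pericyte, 1 of 11 microglia, 2 of 5 tested erythroid and 0 of 7 fibroblast markers, and none was called higher. In the same order, DESeq2 called 9, 5, 4, 5, 2 and 1 lower. Limma voom called 6, 3, 6, 2, 1 and 0 lower, and neither called any higher. The 12 neuron markers summed to 94.2 to 277 CPM in knockout and 292 to 1765 CPM in heterozygous libraries, the 9 radial glia markers to 35.7 to 232 and 142 to 453 CPM, the 11 microglia markers to 136 to 899 and 529 to 1531 CPM, and the 8 erythroid markers to 19.3 to 52.0 and 237 to 611 CPM, with the adult globins Hba-a1 and Hbb-bt at 0 in every library. No source used here gives the counting rule for reads that match several genes. These values of 0 therefore do not show that adult globin RNA was absent. The 10 pericyte markers ranged from 40.7 to 590.1 CPM in knockout and from 371 to 516 CPM in heterozygous libraries. The 7 fibroblast markers ranged from 107 to 607 and from 222 to 417 CPM. The radial glia, pericyte, microglia and fibroblast sums overlapped between the genotypes, and the neuron and erythroid sums did not. Mean log2 CPM over the pericyte markers was still lower in knockout, at 2.24 against 4.22 in heterozygous libraries. For the fibroblast markers it was 3.57 against 4.70. In such bulk samples, fewer cells of a type and less RNA per cell cannot be told apart. Knockout 1 and heterozygous 2 had Ddx3y transcripts (914 and 331 counts) and almost no Xist (1 and 0 counts), whereas the other libraries had 229 to 1135 Xist counts. Of these, heterozygous 3 and 4 and knockout 4 also had some Ddx3y, at 28, 56 and 6 counts.

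Of the 10 genes, 6 were higher in knockout libraries, 0 were lower and 4 did not pass the test (edgeR quasi-likelihood test, adjusted p under 0.05 over 13540 genes). Of all tested genes, 5.53% were called higher in knockout, 4.02% lower and 9.55% in either direction. The 6 were Trib3, Chac1, Eif4ebp1, Atf5, Sesn2 and Atf4, in order of their fold change, each at least 2-fold higher, as were 2.71% of all tested genes. Stc2, Ddit3, Cebpb and Nupr1 were not called. No member was lower at an unadjusted p under 0.05 in edgeR, and 9 were higher. Of all 13540 tested genes, 3473 passed that unadjusted threshold in either direction. DESeq2 called 7 members higher and limma voom 5, and both called 0 lower. Among all tested genes, DESeq2 called 1110 higher and limma voom 789. The median log2 fold change was 1.87 for the 10 genes and -0.027 for all tested genes. Every knockout library lay above every heterozygous library in 7 of the 10, the 6 called genes and Stc2, against 9.7% of all tested genes (17.6% with groups apart in either direction, 7.9% with every knockout library below). The genes were chosen with earlier results of these data known, so these counts describe the 10 genes and are no independent sign of a response.

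**Figure D1:**
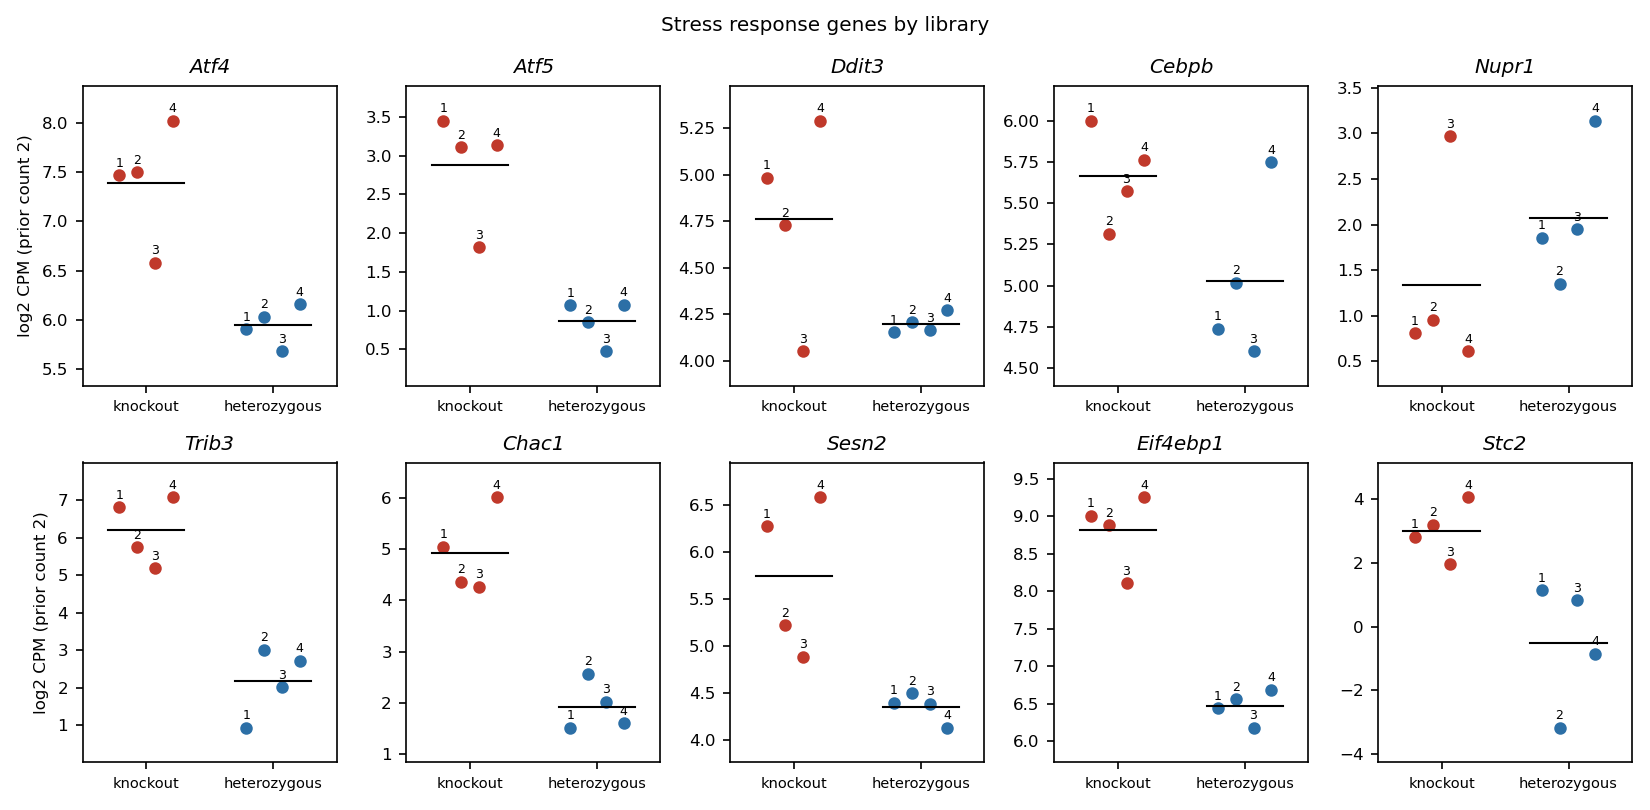
Level of each gene in each library, as log2 CPM with a prior count of 2 (vertical axis), in 4 knockout (red) and 4 heterozygous (blue) libraries numbered by replicate, with horizontal bars at the group means. The knockout points lie above all heterozygous points for Atf4, Atf5, Trib3, Chac1, Sesn2, Eif4ebp1 and Stc2, and the groups overlap for Ddit3, Cebpb and Nupr1.

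Among the transcription factors, Atf4, the central regulator, was at 177, 181, 95.6 and 261 CPM in knockout libraries 1 to 4 and at 59.6, 65.2, 51.1 and 71.3 CPM in heterozygous libraries 1 to 4. Knockout 3 was the lowest of its genotype and still lay above the highest heterozygous library. The means were 179 ± 67.5 CPM in knockout and 61.8 ± 8.60 CPM in heterozygous libraries (SD, n = 4 each). Atf4 rose by 1.53 ± 0.26 on the log2 scale (SE; edgeR adjusted p = 0.00644). Atf4 kept its call whichever of the 8 libraries was left out, with log2 fold changes of 1.29 to 1.76. It lost its call without heterozygous 2 and knockout 1 together (log2 fold change 1.58 ± 0.34, edgeR adjusted p = 0.0549; 6.29e-07 to 0.959 over all alternatives).

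Atf5, a bZIP factor that ATF4 induces and that acts on mitochondrial stress genes, was expressed at a low level. It had 10.8, 8.54, 3.42 and 8.68 CPM in knockout libraries 1 to 4 and 1.99, 1.70, 1.28 and 1.998 CPM in heterozygous libraries 1 to 4. Behind these values stood 212, 98, 60 and 301 counts in knockout and 21, 16, 30 and 36 counts in heterozygous libraries. The groups did not overlap, and Atf5 rose 4.51-fold (log2 fold change 2.17 ± 0.48, SE; edgeR adjusted p = 0.0197). The call was lost without heterozygous 3, knockout 1 or knockout 4 (edgeR adjusted p = 0.0548, 0.0762 and 0.0632; 3.40e-04 to 0.832 over all alternatives). An exon of Atf5 overlaps exons of Nup62 and Il4i1 on the opposite strand, and no source used here gives the strand setting of the counting. Nup62, a nuclear pore gene looked up for this overlap, was at 87.5 ± 17.1 CPM in knockout and 84.1 ± 24.4 CPM in heterozygous libraries, a log2 fold change of 0.060 ± 0.23 (SE).

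Ddit3 encodes CHOP, the factor that links lasting stress to cell death. It had 31.5, 26.4, 16.5 and 39.0 CPM in knockout libraries 1 to 4 and 17.7, 18.4, 17.8 and 19.2 CPM in heterozygous libraries 1 to 4. The heterozygous libraries lay close together, whereas the knockout libraries spread widely, with 3 above all heterozygous libraries and knockout 3 below them all. Ddit3 was not called (log2 fold change 0.64 ± 0.26, SE; edgeR adjusted p = 0.150). Without knockout 3 it passed, at 0.84 ± 0.21 (edgeR adjusted p = 0.0342; 0.0342 to 0.920 over all alternatives). Exons of Ddit3 overlap exons of Mars and Gm4189 on the opposite strand. Mars, the methionyl-tRNA synthetase gene looked up for this overlap, was itself higher in knockout, at 223 ± 80.0 CPM against 123 ± 13.4 CPM in heterozygous libraries (log2 fold change 0.86 ± 0.23, SE; edgeR adjusted p = 0.0412).

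Cebpb, a bZIP factor that pairs with ATF4 and also serves inflammatory and growth signals, had 64.0, 39.7, 47.5 and 54.2 CPM in knockout libraries 1 to 4. Heterozygous libraries 1 to 4 had 26.6, 32.3, 24.2 and 53.7 CPM. Heterozygous 4 stood among the knockout libraries and the other 3 stood below them. Cebpb was not called (log2 fold change 0.59 ± 0.26, SE; edgeR adjusted p = 0.192), but it was without heterozygous 4 (0.90 ± 0.21, edgeR adjusted p = 0.0347; 0.0347 to 0.934 over all alternatives). Its exon overlaps an exon of Tmem189 on the opposite strand, which was at 111 ± 18.3 CPM in knockout and 78.7 ± 7.84 CPM in heterozygous libraries and was not called (edgeR adjusted p = 0.0699).

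Nupr1, a small stress-induced nuclear protein that binds chromatin, did not follow the others. It had 1.64, 1.83, 7.74 and 1.41 CPM in knockout libraries 1 to 4 and 3.51, 2.44, 3.76 and 8.71 CPM in heterozygous libraries 1 to 4. Knockout 3 and heterozygous 4 were high, and knockout 1, 2 and 4 were below all heterozygous libraries. Nupr1 was the only member with a negative log2 fold change, -0.55 ± 0.69 (SE), and was not called (edgeR adjusted p = 0.662). The knockout library with the lowest Atf4, knockout 3, was thus the knockout library with the highest Nupr1.

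The effectors held the largest changes. Trib3 encodes a pseudokinase that binds ATF4 and the kinase Akt and acts as a brake on the response. It had 112, 53.5, 36.2 and 135 CPM in knockout libraries 1 to 4, against 1.80, 7.97, 3.93 and 6.49 CPM in heterozygous libraries 1 to 4. The lowest knockout library was several times the highest heterozygous one, and both genotypes varied widely, with coefficients of variation of 55.7% in knockout and 54.1% in heterozygous libraries. Trib3 rose 16.7-fold (log2 fold change 4.06 ± 0.52, SE; edgeR adjusted p = 0.00196) and ranked 57th of all tested genes by the size of its fold change. It kept its call whichever of the 8 libraries was left out, at 3.74 to 4.34 on the log2 scale.

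Chac1 encodes an enzyme that degrades glutathione. It had 33.0, 20.5, 19.2 and 64.5 CPM in knockout libraries 1 to 4 and 2.75, 5.84, 3.97 and 2.94 CPM in heterozygous libraries 1 to 4. The groups were far apart, with knockout 4 well above the other knockout libraries. Chac1 rose 8.90-fold (log2 fold change 3.15 ± 0.44, SE; edgeR adjusted p = 0.00297) and kept its call whichever of the 8 libraries was left out, at 2.65 to 3.41 on the log2 scale.

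Promoter windows of 250 bases before the annotated start were read from RefSeq (GRCm38.p6) for 9 of the 10 genes, in 10 windows because Atf5 has more than one start. They were searched on both strands for TGATGNAA, the core of the composite element that C/EBP and ATF factors bind. It was found in 2 of the 9 genes, Chac1 and Nupr1, and in 3.45% of all 32851 windows of the same length. Chac1 rose and Nupr1 was not called. The matched letters were the same in both, on the strand opposite to the gene. In Chac1 they lay from -193 to -186 and in Nupr1 from -110 to -103, counted from the start. The windows of these 2 genes are shown with that of Trib3, the gene with the largest rise of the 10, whose window has no match; capitals mark the match, read here on the gene's own strand, 5′ to 3′. The ER stress element, held by 0.113% of all windows, and the cyclic AMP element TGACGTCA, held by 1.55%, were in none of the 10 windows. A match describes letters only and is no evidence of binding.
Chac1 (chr2:119350992-119351241, plus strand): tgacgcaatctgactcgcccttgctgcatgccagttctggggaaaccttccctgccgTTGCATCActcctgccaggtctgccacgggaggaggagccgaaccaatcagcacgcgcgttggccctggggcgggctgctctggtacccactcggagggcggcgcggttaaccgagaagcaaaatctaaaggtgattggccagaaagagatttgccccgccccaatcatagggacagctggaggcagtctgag
Nupr1 (chr7:126625471-126625720, minus strand): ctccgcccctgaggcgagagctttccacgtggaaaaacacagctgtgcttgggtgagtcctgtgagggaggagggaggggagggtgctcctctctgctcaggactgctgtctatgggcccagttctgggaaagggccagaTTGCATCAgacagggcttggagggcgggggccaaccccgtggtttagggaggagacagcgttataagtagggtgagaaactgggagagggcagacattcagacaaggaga
Trib3 (chr2:152344061-152344310, minus strand): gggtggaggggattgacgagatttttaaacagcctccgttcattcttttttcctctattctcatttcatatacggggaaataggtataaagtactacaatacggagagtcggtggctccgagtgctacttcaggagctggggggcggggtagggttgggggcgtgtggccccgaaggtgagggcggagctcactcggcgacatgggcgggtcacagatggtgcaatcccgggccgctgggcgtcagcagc

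Eif4ebp1 encodes a repressor of translation that binds the cap-binding protein eIF4E when the growth kinase mTORC1 is inactive. It had 514, 471, 276 and 609.9 CPM in knockout libraries 1 to 4 and 86.6, 94.2, 72.3 and 103 CPM in heterozygous libraries 1 to 4. The genotypes were separated by a wide gap, with a mean of 468 ± 140.4 CPM in knockout and 89.0 ± 12.9 CPM in heterozygous libraries (SD, n = 4 each). Its log2 fold change of 2.40 ± 0.23 (SE) was not the largest of the 10, but its error was the smallest and its p ranked 12th of all tested genes (edgeR adjusted p = 7.08e-04).

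Sesn2 encodes sestrin 2, a leucine sensor that restrains mTORC1. It had 77.4, 37.2, 29.5 and 96.0 CPM in knockout libraries 1 to 4, against 20.98, 22.5, 20.8 and 17.4 CPM in heterozygous libraries 1 to 4. Knockout 1 and 4 were high and knockout 2 and 3 nearer to the heterozygous libraries, without overlap. Sesn2 rose 2.94-fold (log2 fold change 1.56 ± 0.34, SE; edgeR adjusted p = 0.0198). The call was lost without heterozygous 1, knockout 1 or knockout 4 (edgeR adjusted p = 0.0502, 0.0599 and 0.0565; 2.50e-04 to 0.926 over all alternatives).

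Stc2 encodes stanniocalcin 2, a secreted glycoprotein induced by endoplasmic reticulum stress. It had 6.95, 9.06, 3.76 and 16.6 CPM in knockout libraries 1 to 4, from 136, 104, 66 and 575 counts. Heterozygous libraries 1 to 4 had 2.09, 0, 1.66 and 0.444 CPM, from 22, 0, 39 and 8 counts, where 3 counts, the floor that a count of 0 allows, would be 0.319 CPM in heterozygous 2. Every knockout library was above every heterozygous one, yet the low and uneven heterozygous counts gave a wide error. The log2 fold change of 3.09 ± 0.89 (SE) missed the threshold (edgeR adjusted p = 0.0528). It passed without knockout 3 (edgeR adjusted p = 0.0431), with DESeq2 (adjusted p = 0.00204) and with all genes that had any count kept (edgeR adjusted p = 0.0495), and adjusted p-values ran from 0.00204 to 0.851 over all alternatives.

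Divided by the merged exon length of each gene in GENCODE M21, from 1504 bases for Cebpb to 5175 bases for Stc2, levels could be set side by side between genes. Per kilobase, Eif4ebp1 was the most abundant of the 10 in both genotypes, at 213 ± 63.9 CPM per kb in knockout and 40.5 ± 5.88 CPM per kb in heterozygous libraries (SD, n = 4 each). In heterozygous libraries Atf4 (26.2 ± 3.65 CPM per kb), Cebpb (22.7 ± 8.95) and Ddit3 (10.7 ± 0.408) followed, then Sesn2 (5.88 ± 0.619), and the ranges of Atf4 and Cebpb overlapped. Trib3 and Chac1 stood together near the bottom of the heterozygous order, at 2.38 ± 1.29 and 2.37 ± 0.864 CPM per kb, with Nupr1 at 1.83 ± 1.11. In knockout libraries Trib3 had a mean of 39.6 ± 22.0 CPM per kb, next to Cebpb at 34.2 ± 6.85, and the ranges of both overlapped with that of Atf4 at 75.8 ± 28.6. Atf5 and Stc2 were low in both genotypes, at 3.95 ± 1.58 and 1.76 ± 1.05 CPM per kb in knockout and 0.874 ± 0.170 and 0.203 ± 0.191 CPM per kb in heterozygous libraries. These lengths cover every annotated transcript, and the transcripts used in these cells may be shorter.

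The knockout libraries were ordered similarly, though not identically, across the called genes. Knockout 3 was the lowest knockout library for all 6 called genes, and knockout 4 was the highest for 5 of them, knockout 1 being the highest for Atf5. Knockout 1 stood above knockout 2 except for Atf4. Averaged over the 6 called genes, the level above the heterozygous mean was 2.72, 2.18, 1.52 and 3.06 on the log2 scale in knockout libraries 1 to 4, and -0.24, 0.30, -0.16 and 0.11 in heterozygous libraries 1 to 4. The other-cell score, the mean of the neuron, radial glia, pericyte, microglia and erythroid list means of log2 CPM, was 2.25, 1.57, 2.93 and 1.40 in knockout libraries 1 to 4 and 4.65, 3.70, 4.02 and 3.87 in heterozygous libraries 1 to 4. The knockout library with the lowest rise, knockout 3, had the highest score of its genotype, and the one with the highest rise, knockout 4, had the lowest. Knockout 1 and 2 stood the other way round, knockout 1 having both the higher rise and the higher score. The 4 heterozygous libraries stood in inverse order on both measures.

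**Figure D2:**
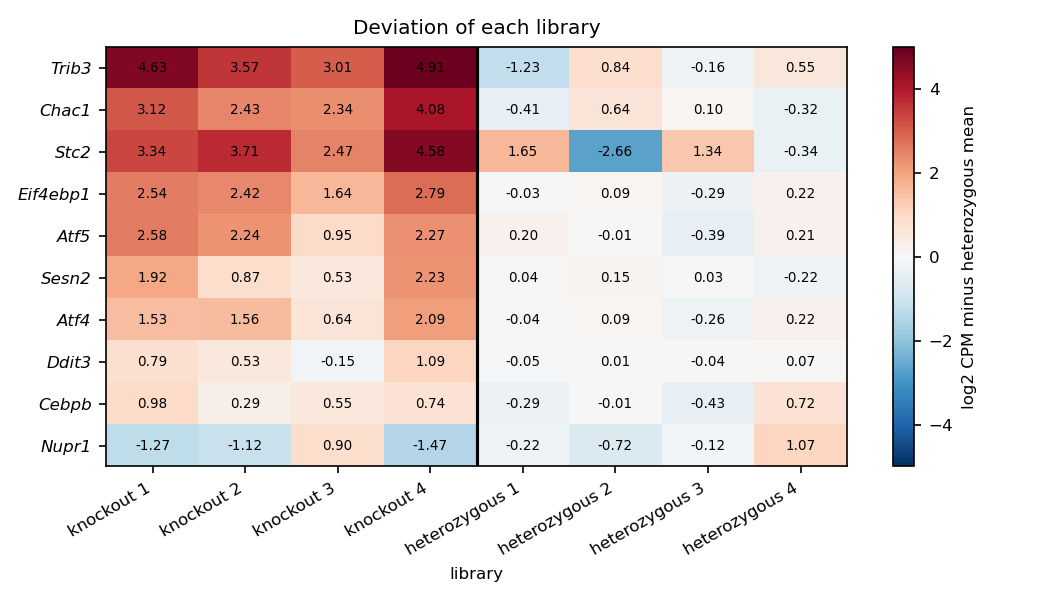
Log2 CPM of each gene (rows, largest fold change at the top) in each library (columns) minus that gene's mean over the heterozygous libraries. Knockout 3 is the palest knockout column for the 6 called genes, and Nupr1 is below 0 in knockout 1, 2 and 4 and above 0 in knockout 3.

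**Figure D3:**
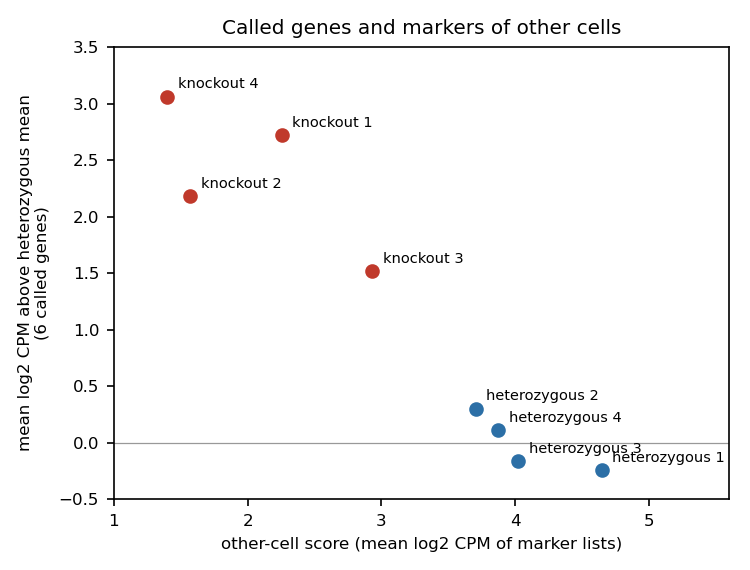
Mean log2 CPM of the 6 called genes above their heterozygous mean (vertical axis) against the other-cell score (horizontal axis), 1 point per library. The 4 knockout libraries lie at 1.52 or more with scores of 1.40 to 2.93. The 4 heterozygous libraries lie near 0 with scores of 3.70 to 4.65, so the genotypes do not overlap on either axis. The 6 genes were picked because they were called higher in knockout, so the gap on the vertical axis follows from that choice.

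Because the score separates the genotypes, a fit with the score as a covariate has little left to tell them apart. With the other-cell score in the model, 0 of the 10 genes and 0 of all genes were called (in edgeR 2 of the 10 and 1150 of all genes had an unadjusted p under 0.05; DESeq2 with no score called 7 and 2229). Log2 fold changes shrank in size for every member except Nupr1, and errors widened for all 10. In this fit Atf4 was at 0.19 ± 0.44, Sesn2 at 0.50 ± 0.76, Chac1 at 1.43 ± 0.73, Eif4ebp1 at 1.38 ± 0.42 and Trib3 at 1.89 ± 0.81 (log2 fold change ± SE), while Ddit3 was at -0.38 ± 0.54 and Nupr1 at 1.35 ± 1.20, with their signs turned. With a neuronal score, the mean of the neuron and radial glia list means, Eif4ebp1 alone was called (1.91 ± 0.33, edgeR adjusted p = 0.0465; 2.76e-22 to 0.424 over all alternatives), and Trib3 was at 2.96 ± 0.65, Chac1 at 2.45 ± 0.66, Atf5 at 1.79 ± 0.78, Sesn2 at 1.37 ± 0.60 and Atf4 at 0.90 ± 0.38. Stc2 was at 4.12 ± 1.87, also without a call. Genotype and transcripts of other cells cannot be told apart in these libraries. Without heterozygous 2 and knockout 1, the libraries with Ddx3y and almost no Xist, Trib3, Chac1 and Eif4ebp1 were still called. The other 3 were not, with log2 fold changes near those from all 8 libraries and wider errors: 1.58 ± 0.34 for Atf4, 1.98 ± 0.63 for Atf5 and 1.47 ± 0.43 for Sesn2.

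**Figure D4:**
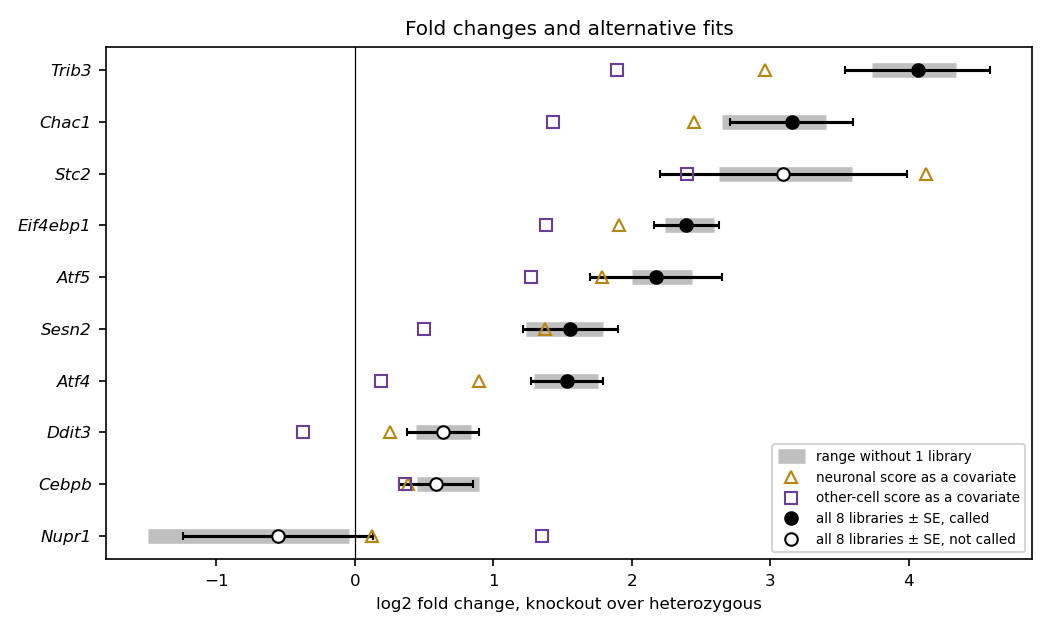
Log2 fold change, knockout over heterozygous, of each gene with its SE (circles, filled where called), the range over the 8 fits that left out 1 library (grey bars) and the values with the neuronal score (triangles) or the other-cell score (squares) as a covariate. The squares lie left of the circles for every gene except Nupr1, and those of Trib3, Chac1, Eif4ebp1, Atf5 and Stc2 stay above 1.

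Upstream of these genes stand the kinases, phosphatase subunits and translation factors of eIF2. In edgeR, 6 of 22 tested genes were higher and 0 lower at an unadjusted p under 0.05. Of all 13540 tested genes, 3473 passed that threshold in either direction. DESeq2 called 3 higher and 0 lower, and limma voom 1 and 0. The list's median log2 fold change was 0.21. In edgeR 1 rose and 0 fell after adjustment, a share near the 5.53% higher and 4.02% lower of all tested genes. Of the 21 without a call, 19 had a positive log2 fold change and 2 a negative one. In 4 of the 22, every knockout library lay above every heterozygous library, against 9.7% of all tested genes. The one that rose was Eif2s2, the beta subunit of eIF2, at 225 ± 50.3 CPM in knockout and 131 ± 18.5 CPM in heterozygous libraries (log2 fold change 0.77 ± 0.18, SE; edgeR adjusted p = 0.0235). No gene of the list was called without heterozygous 1, 2 or 3, and 3 were called without knockout 2. The sensor kinases, named here for their role, were not called by edgeR or limma voom, and DESeq2 called 1 of the 4, Eif2ak4 (adjusted p = 0.0221). Eif2ak1, the heme-regulated kinase, was at 62.2 ± 7.14 CPM in knockout and 72.2 ± 16.2 CPM in heterozygous libraries (log2 fold change -0.21 ± 0.18, SE). Eif2ak4, the amino acid sensor GCN2, was at 16.8 ± 4.44 CPM in knockout and 8.68 ± 1.92 CPM in heterozygous libraries, without overlap (0.95 ± 0.29; edgeR adjusted p = 0.0618). Eif2ak3, the endoplasmic reticulum sensor PERK, was at 31.4 ± 12.2 and 20.1 ± 4.05 CPM in knockout and heterozygous libraries (0.64 ± 0.31; edgeR adjusted p = 0.220), and Eif2ak2, the sensor of double-stranded RNA, at 13.4 ± 3.05 and 12.8 ± 3.98 CPM in the same order (0.067 ± 0.30). The kinases act through phosphorylation, which these data do not measure.

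Downstream, the ATF4 target list holds 32 genes, among them those of amino acid synthesis and transport, tRNA charging, secreted factors, protein folding and degradation, and cell death, of which 31 were matched and 30 tested. Of these 12 rose and 1 fell in edgeR (14 and 1 in DESeq2, 11 and 1 in limma voom), against 5.53% higher and 4.02% lower of all tested genes. The list's median log2 fold change was 0.65. The smallest p-values belonged to Mthfd2 of mitochondrial folate metabolism, Asns, Herpud1 of protein degradation at the endoplasmic reticulum and Ero1l, an oxidase that helps form disulfide bonds. Mthfd2 was at 95.8 ± 46.7 CPM in knockout and 9.62 ± 1.20 CPM in heterozygous libraries. Asns was at 368 ± 182 and 44.0 ± 3.49 CPM, Herpud1 at 144 ± 19.2 and 62.4 ± 10.7 CPM, and Ero1l at 72.3 ± 18.6 and 26.8 ± 4.03 CPM, each in knockout and heterozygous libraries. The gene that fell was Slc1a4, a transporter of neutral amino acids, at 575 ± 80.9 CPM in knockout and 1012 ± 269 CPM in heterozygous libraries (log2 fold change -0.82 ± 0.20, SE; edgeR adjusted p = 0.0308). The 17 targets without a call had log2 fold changes of -1.72 to 2.41, positive in 10 and negative in 7. Among them, named after their values were seen, were Aldh1l2 of mitochondrial folate metabolism (2.41 ± 0.91), the lipoprotein and reelin receptor gene Vldlr (1.44 ± 0.80), the cystine transporter gene Slc7a11 (-0.27 ± 0.55) and the mTORC1 inhibitor gene Ddit4 (-0.73 ± 0.36). This list, like the others, was drawn up with earlier results known.

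Of 14 other bZIP factors tested, Atf3 and Xbp1 rose and Fos fell, 3 of 14 against 9.55% of all tested genes, with a median log2 fold change of 0.28. Atf3, a stress-induced repressor, was at 90.8 ± 19.3 CPM in knockout and 44.9 ± 4.13 CPM in heterozygous libraries (log2 fold change 1.02 ± 0.18, SE; edgeR adjusted p = 0.00791). Xbp1, the factor of the IRE1 branch of the unfolded protein response, was at 513 ± 25.3 and 318 ± 47.6 CPM in knockout and heterozygous libraries (0.69 ± 0.14; edgeR adjusted p = 0.0127). Fos, an immediate early gene, was at 102 ± 33.9 CPM in knockout and 293 ± 157 CPM in heterozygous libraries (-1.52 ± 0.38; edgeR adjusted p = 0.0327), with overlap. Of 12 further immediate early and heat shock genes, which respond to tissue dissociation, edgeR and DESeq2 called 0 and limma voom 1, as higher. At an unadjusted p under 0.05 in edgeR, 1 was higher and 2 were lower, against 3473 of all 13540 tested genes in either direction. Their log2 fold changes ran from -2.04 to 1.63, with a median of 0.27. Ier2 and Dusp1, the most abundant, were at 438 ± 68.2 and 382 ± 37.9 CPM in knockout and 338 ± 103 and 346 ± 155 CPM in heterozygous libraries.

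In edgeR, 3 of 11 tested paralogs of the 10 genes were higher and 1 lower at an unadjusted p under 0.05. Of all 13540 tested genes, 3473 passed that threshold in either direction. DESeq2 and limma voom called 1 higher and 1 lower each. The list's median log2 fold change was 0.26. In edgeR 1 rose and 0 fell after adjustment, a share near the 9.55% of all tested genes called in either direction. Trib1, a relative of Trib3 that directs protein degradation, was at 76.3 ± 4.11 CPM in knockout and 36.1 ± 6.58 CPM in heterozygous libraries (log2 fold change 1.08 ± 0.16, SE; edgeR adjusted p = 0.00384). The count was 2 without heterozygous 4, knockout 2 or knockout 3. The relatives below are given for the pairing and not for their values. Trib2 was at -0.67 ± 0.19 on the log2 scale (edgeR adjusted p = 0.0532), against the rise of Trib3. Sesn1 and Sesn3 were at -0.38 ± 0.21 and 0.15 ± 0.41, Eif4ebp2 and Eif4ebp3 at 0.41 ± 0.16 and 0.18 ± 0.57, Chac2 at 0.66 ± 0.38 and Stc1 at 0.66 ± 0.41. Cebpa, Cebpd and Cebpg, the relatives of Cebpb, were at -1.34 ± 0.88, 0.42 ± 0.17 and 0.26 ± 0.13. None of these 10 relatives was called by edgeR. Trib2 was called lower by DESeq2 (adjusted p = 0.0119) and by limma voom (adjusted p = 0.0451). The difference in fold change between paralogs was not tested. Genes of mTORC1 and the cap-binding complex, with which Sesn2 and Eif4ebp1 work, had a median log2 fold change of 0.043, and 1 of 22 rose, again a share near that of all genes. It was Sec13, a protein of the sestrin-regulated GATOR2 complex and of the COPII vesicle coat (498 ± 39.6 CPM in knockout and 298 ± 16.4 CPM in heterozygous libraries).

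**Figure D5:**
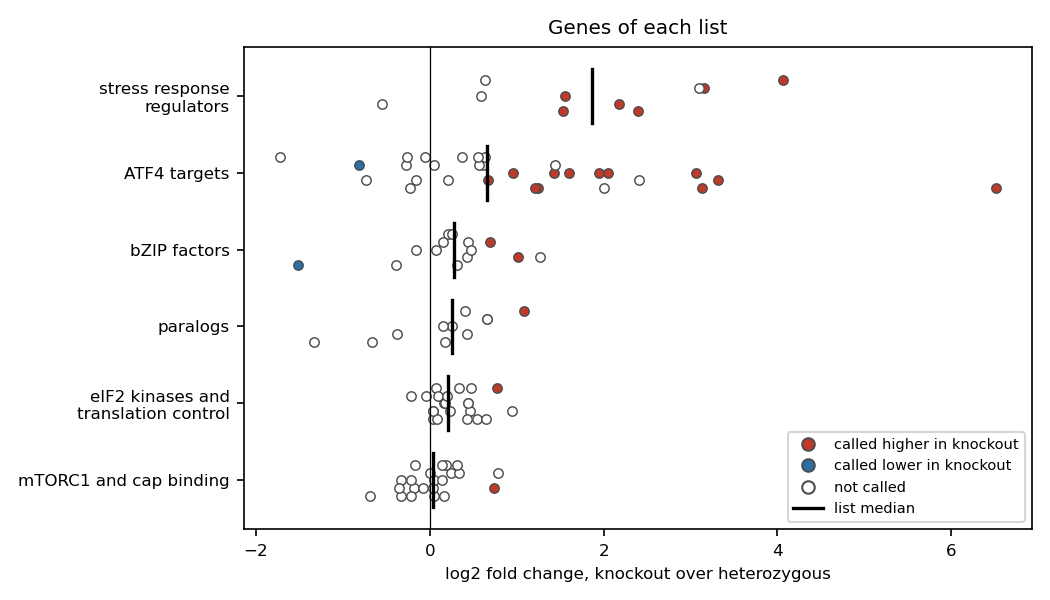
Log2 fold change, knockout over heterozygous, of every tested gene of each list (points; red called higher, blue called lower, white not called) with the list median as a black bar. The medians are 1.87 for the 10 regulators, 0.65 for ATF4 targets, 0.28 for bZIP factors, 0.26 for paralogs, 0.21 for eIF2 genes and 0.043 for mTORC1 and cap binding.

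Gene profiles over the 8 libraries were compared as z-scored log2 CPM, by the root mean square of their difference, among genes averaging at least 5 CPM. The 5 nearest to Atf4 were Asns (0.155), L3hypdh (0.158), Creld2 (0.181), Tnfrsf10b (0.182) and Rpl4 (0.202). Eif4ebp1 was the next, at 0.212, sixth of 10404 genes, and Trib3 and Chac1 ranked 47th and 65th. Sesn2 and Ddit3 ranked 108th and 112th, while Stc2 and Cebpb ranked 966th and 1324th. Atf5 and Nupr1 averaged under 5 CPM and so were not ranked. Their differences from Atf4 were 0.246 for Atf5 and 1.70 for Nupr1. Nearest to the mean profile of the 10 genes were Creld2 (0.244), Scamp4 (0.248), Gpihbp1 (0.257), Ccng1 (0.280) and Asns. All of these neighbours separate the genotypes, as Atf4 does.

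The 10 genes lie on 7 chromosomes of GRCm38. Trib3 (152337425 to 152344060), Chac1 (119351242 to 119354326) and Cebpb (167688915 to 167690432) are on chromosome 2, and Atf5 (44812256 to 44816658) and Nupr1 (126623246 to 126625470) on chromosome 7. Atf4 is on chromosome 15 (80255184 to 80257545), Ddit3 on chromosome 10 (127290793 to 127296291), Sesn2 on chromosome 4 (132492804 to 132510456), Stc2 on chromosome 11 (31359441 to 31370061) and Eif4ebp1 on chromosome 8 (27260327 to 27275656). No exon of Atf4, Trib3, Chac1, Sesn2, Nupr1, Stc2 or Eif4ebp1 overlaps an exon of another gene in GENCODE M21.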

How the data were processed

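The authors deposited 1 table of raw counts per gene symbol for 8 libraries (SMART-Seq v4 cDNA, Nextera XT libraries, single-end reads of 50 nucleotides, per the labels). TopHat2 (0.7), Cufflinks (2.2.1) and the mm10 build are named, with no role, in the submitters' processing notes; no source used here gives the counting program or its strand setting. Counts were filtered with filterByExpr (minimum count 10, minimum total 15), scaled by TMM and tested with edgeR 4.0.16 (quasi-likelihood F-test, robust, no covariate) in R 4.3.3, adjusted by Benjamini-Hochberg over 13540 genes. The SE of a log2 fold change is its size over the square root of F. CPM use TMM-scaled library sizes, and total counts were 9.11 to 35.9 M. Alternatives included DESeq2 1.42.0, limma voom (limma 3.58.1), other scalings and filters, a replicate block, marker scores as covariates and left-out libraries.

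The 10 genes, the lists and the alternatives were chosen with earlier results of these data known. Named genes were all 10 members, from each list at most 4 called genes, those with the smallest p (with 0 called, the 2 with the highest level), the mutated gene, and the 5 nearest profiles; other names are marked. Of 194 list symbols, 7 were matched through synonyms of RefSeq's gene table, 1 was not matched, and 6 matched symbols did not pass the filter on low counts and were not tested. On simulated counts for knockout over heterozygous (13196 genes), 33.7% of 95 genes changed 2-fold and 66.3% of 98 genes changed 4-fold were recovered, and 2 of 99 calls were false. No 2 libraries of a genotype agreed within sampling noise (lowest chi-square over its degrees of freedom 29.0).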

Additional observations from a re-analysis of the deposited data

Results flagged for a closer look

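Within a genotype, 4 of 60 sets of 4 libraries held 1 library apart from the other 3, by a gap in log2 CPM above Dixon's critical share of the range; chance flags about 1 in 20 such sets. Nupr1 in knockout 3 was at 2.97, against 0.96 in the next knockout library. Tnfrsf10b, a death receptor gene of the ATF4 target list, was at 2.87 in knockout 3, against 4.26 in the next, so knockout 3 was the high library for Nupr1 and the low one for Tnfrsf10b. Eif2s2 in knockout 2 was at 8.23, against 7.67 in the next. Dusp1 in knockout 2 was at 8.34, against 8.64 in the next.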

How the results depend on the processing

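Of 200 refitted log2 fold changes of the 10 genes, 170 kept their direction and side of the threshold, 22 lost their call, 5 gained one and 3 turned: Nupr1 to 0.13 (neuronal score) and 1.35 (other-cell score), and Ddit3 to -0.38 (other-cell score). With the other-cell score as a covariate 0 genes were called in all, and 0 members, 0 ATF4 targets, 0 eIF2 genes, 0 bZIP factors, 0 paralogs and 0 mTORC1 genes. With the neuronal score the counts were 86 in all, 1 member, 1 ATF4 target and 0 in each of the other 4 lists. Without heterozygous 2 and knockout 1 together they were 300 in all, 3 members higher, 6 ATF4 targets higher, 0 eIF2 and 0 mTORC1 genes. Without heterozygous 1 and knockout 2 together they were 842 in all, 0 eIF2 genes and 2 paralogs. DESeq2 called 2229 genes in all, 3 eIF2 genes, 5 bZIP factors and 2 paralogs. Library size alone, DESeq2 size factors and limma voom each gave 2 paralogs. The fits that left libraries out had fewer of them, and the cause of these differences was not tested. Leaving out 1 library gave 579 to 1347 genes in all against 1293, 4 to 8 members higher against 6, 0 members lower, 8 to 15 ATF4 targets higher against 12, 0 to 3 eIF2 genes, 2 to 3 bZIP factors, 1 to 2 paralogs and 1 mTORC1 gene. Leaving out knockout 1 gave the 579, knockout 4 gave 625, heterozygous 1 gave 787 and heterozygous 3 gave 790. With library size alone as the scaling the median of all genes moved by -0.12 and 42.6% of called genes were higher in knockout, against 57.9%; the same 6 members were called. The replicate numbers are not given as a pairing, and deviations of same-numbered libraries correlated at 0.058, 0.21, -0.046 and 0.021, with knockout 2 alone matching its own number best. With the replicate number as a block 868 genes and the same 6 members were called. Atf5 and Stc2 rest on few heterozygous counts, which limits their precision. The floor of 3 counts given for Stc2 covers counting error only, whereas each SE also includes the variation among libraries.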
